A study of Schmidtea mediterranea with 8 samples.

Results

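The 200 transcripts described here were the most abundant of those found at nearly equal levels in the X1 and Xins cell fractions of the planarian *Schmidtea mediterranea*, out of 17882 transcripts measured. For each transcript, the mean level over the 4 X1 libraries was divided by the mean over the 4 Xins libraries. Ratios from 0.9 to 1.11 were kept, *jun-1* (SMED30001802) was left out, and the 200 transcripts with the highest mean over the 8 libraries were taken from the remaining 1139 in that range. The members were thus selected on their RPKM values in these X1 and Xins libraries, and their near equality is a description and not a result.

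Planarians replace their tissues from neoblasts, dividing stem cells scattered through the mesenchyme. To separate these cells from their descendants, cells of adult worms were stained with the DNA dye Hoechst and sorted by flow cytometry into X1, the dividing and irradiation-sensitive fraction, and Xins, the irradiation-insensitive fraction of mostly post-mitotic cells. Polyadenylated RNA of each fraction was sequenced from 4 replicate samples, with no treatment or gene knockdown named in the labels of either fraction. The study kept its worms as the asexual strain CIW4, a clonal line. The labels do not say whether the replicates came from separate worms or separate sorts, so p-values given here measure the spread between these samples, which may be technical.

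Transcripts that dividing and post-mitotic cells hold at like levels can encode proteins of general cell upkeep, such as those for protein folding, vesicle traffic, metabolism and energy supply. A fraction is a mixture, however, and a transcript can also reach equal totals when a few cells of a fraction hold much of it. In bulk samples such as these, fewer cells of a type and less RNA per cell cannot be told apart.

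Sorting markers were at the levels their fractions imply. Piwi-like protein 1 (SMED30007406), a neoblast marker, stood at 1925 to 2260 RPKM (reads scaled by transcript length and by library size) in X1 and at 38.3 to 86.9 in Xins. The replication clamp PCNA (SMED30004304) stood at 602 to 842 RPKM in X1 and 13.4 to 39.3 in Xins, and the histone H2A.J hit (SMED30002436) at 841 to 1284 and 13.6 to 34.2. AGAT-1 (SMED30018353), which marks late progeny of the epidermal lineage, stood at 1.89 to 5.78 RPKM in X1 and 763 to 823 in Xins, *zpuf-6* (SMED30030681) at 3.02 to 15.1 and 383 to 617, and *egr-5* (SMED30029873) at no more than 3.24 and at 47.1 to 56.6. No marker was at 0 in the fraction where it was low, and the part of cross-contamination in the members' levels was not tested. The deposited values allowed whole reads to be recovered for all 17882 transcripts, and these summed to 14323705 to 15523242 reads per library.

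Equal levels were uncommon among these transcripts. Of the 15563 transcripts with a mean of at least 1 RPKM, 1000 (6.43%) had a ratio in the range. The share was 6.07% of the 8069 transcripts from 1 to 10 RPKM, 7.83% of 3947 from 10 to 33 RPKM and 6.84% of 2165 from 33 to 100 RPKM. It was 3.90% of the 1232 transcripts from 100 to 1000 RPKM and 3.33% of the 150 above that level, where 5 were in the range. Within the span of levels that the members cover, 2087 transcripts lay above the range (higher in X1) and 1178 below it (higher in Xins).

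The members ran from 33.5 to 3135 RPKM with a median of 57.6. Only 5 reached 1000 RPKM, 48 lay between 100 and 1000, and 147 lay under 100. Their ratios filled the range evenly, with 49 members from 0.9 to 0.95, 52 from there to 1 and 99 above 1. The plot of mean levels shows them as a thin diagonal band beside a broad cloud.

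**Figure D1:**
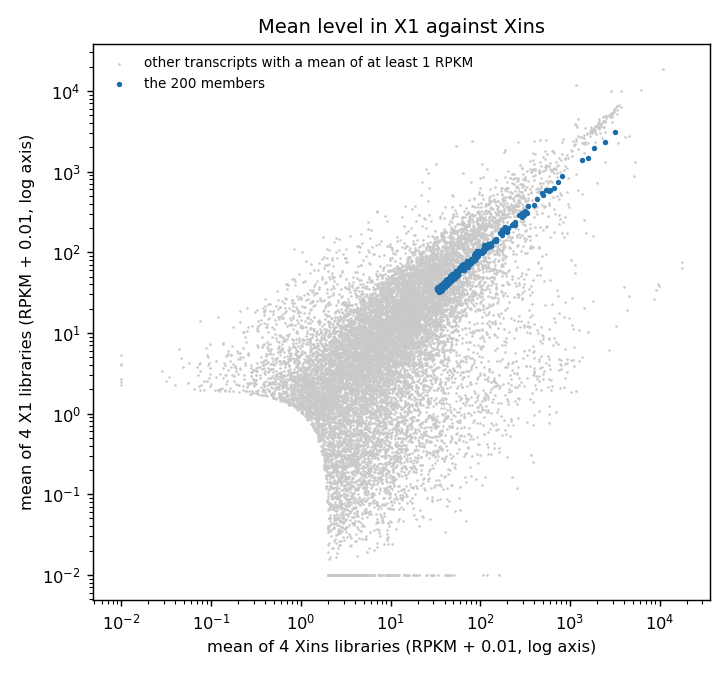
Mean level of each transcript over the 4 Xins libraries (horizontal, RPKM + 0.01, log axis) and the 4 X1 libraries (vertical, same scale), for transcripts with a mean of at least 1 RPKM. The 200 members (blue) lie along the diagonal from 33.5 to 3135 RPKM because their equal ratio chose them, while most other transcripts (grey) lie away from it.

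At the edges of the rule, members and outsiders were nearly alike. By level, SMED30029234 (33.53 RPKM), SMED30024210 (33.48 RPKM) and SMED30026027 (33.46 RPKM) were the last taken, and SMED30015531 (33.25 RPKM), SMED30029165 (32.78 RPKM) and SMED30009368 (32.75 RPKM) were the first left out. By ratio, SMED30023243 (0.901), SMED30013177 (0.905) and SMED30035284 (0.906) lay just above the lower limit and SMED30024749 (0.8997), SMED30029698 (0.8992) and SMED30003908 (0.897) just below it. Under the upper limit lay SMED30003163 (1.109), SMED30016048 (1.108) and SMED30014769 (1.107), and beyond it SMED30025886 (1.1112), SMED30029238 (1.1113) and SMED30025397 (1.1116). These ratios differ from one another by far less than the spread between libraries given further on.

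The sources used here give no protein for most of the members, including all of the most abundant. SMED30022078, a transcript of 629 nucleotides and the most abundant member, stood at 2535, 2934, 3286 and 3667 RPKM in X1 replicates 1 to 4 and at 2543, 3903, 3498 and 2714 in Xins replicates 1 to 4. SMED30009076 (1515 nucleotides) stood at 1940, 2389, 2540 and 2506 RPKM in X1 and at 2217, 3229, 2005 and 2505 in Xins. SMED30004124 (1130 nucleotides) stood at 1546, 1900, 1947 and 2473 RPKM in X1 and at 1615, 1574, 2334 and 1887 in Xins. In each of these the lowest X1 value was in replicate 1, and the spread within a fraction was much larger than the distance between the fraction means.

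SMED30000901 (508 nucleotides) stood at 1164, 1546, 1425 and 1774 RPKM in X1 and at 1219, 1652, 2002 and 1453 in Xins. SMED30012212 (891 nucleotides) stood at 1201, 1696, 1206 and 1539 RPKM in X1 and at 1657, 1315, 1508 and 1026 in Xins. SMED30012309 (707 nucleotides), which whole worms with *chd4* or *p53* knocked down held at a raised level in the study's lists, stood at 455, 901, 945 and 1210 RPKM in X1 and at 892, 967, 701 and 703 in Xins. The last of these had the wider spread, with X1 replicate 1 well under the other 3 X1 libraries and X1 replicate 4 above all the others.

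The next of the 15 most abundant members had means between 390.0 and 750.4 RPKM in X1 and between 401 and 739 in Xins. SMED30019874 stood at 589, 735, 750 and 928 RPKM in X1 and at 630, 732, 821 and 772 in Xins. SMED30013470 stood at 473, 645, 567 and 706 RPKM in X1 and at 586, 560, 594 and 440 in Xins. SMED30011303 stood at 316, 374, 391 and 479 RPKM in X1 and at 374, 413, 418 and 398 in Xins. X1 replicate 1 was again the lowest and X1 replicate 4 the highest library of the fraction for each of these. The remaining members of this group (SMED30020269, SMED30013201, SMED30029139, SMED30035848, SMED30027474 and the isomerase SMED30002547) had fraction means of 428 to 664 RPKM.

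**Figure D2:**
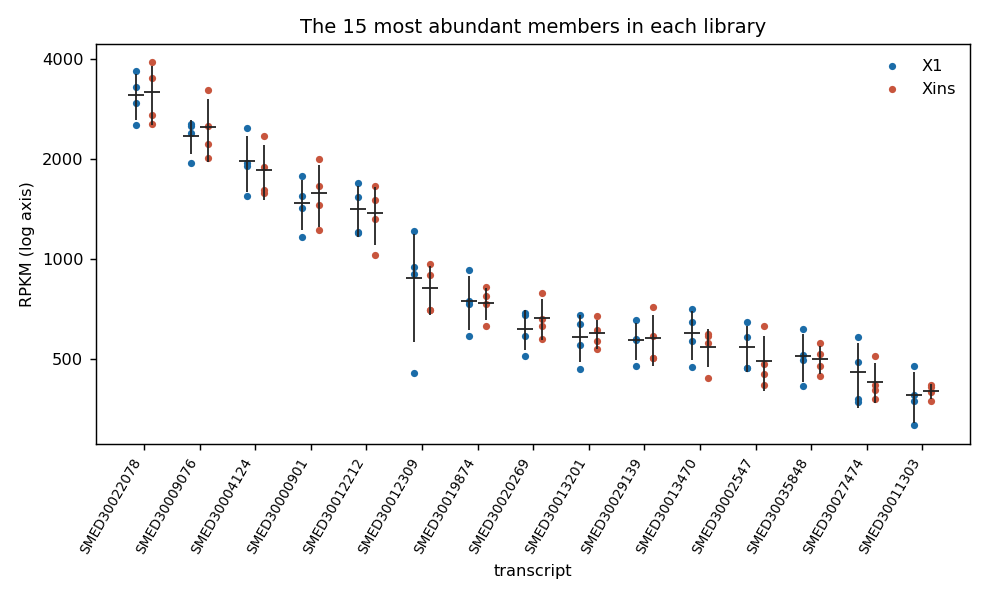
Level (RPKM, log axis) of the 15 most abundant members in each X1 library (blue) and Xins library (red), where horizontal bars are means and vertical bars 1 SD of 4 libraries. For every one of the 15 the points of both fractions overlap, and the lowest point of the sixth, SMED30012309, is X1 replicate 1 at 455 RPKM.

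Protein names could be given for 14 members, in the tables of transcripts that changed in the study's RNAi worms. Those tables name 8.42% of all transcripts (1505 of 17882) and 7% of the members, and a transcript outside them was left unnamed here whatever it encodes. The named members are therefore those that also responded to *chd4* or *p53* RNAi and are no sample of the 200.

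Several of the names belong to protein folding and membrane traffic. The hit of SMED30002547 is a peptidyl-prolyl cis-trans isomerase, an enzyme that speeds turns of the protein backbone during folding, and stood at 471, 585, 471 and 646 RPKM in X1 and at 417, 450, 628 and 483 in Xins. SEC13 (SMED30014117), a coat protein of vesicles that leave the endoplasmic reticulum and also a part of the nuclear pore, stood at 170, 209, 207 and 285 RPKM in X1 and at 211, 216, 231 and 248 in Xins. Both had X1 replicate 4 as their highest library, and the X1 values of SEC13 enclosed all its Xins values. Ral-A (SMED30009695), a small GTPase that acts in exocytosis in mammals, stood at 108, 121, 130 and 154 RPKM in X1 and at 121, 135, 139 and 128 in Xins. Phosphatidylinositol transfer protein alpha (SMED30015151), which carries phospholipid between membranes, stood at 104, 120, 123 and 146 RPKM in X1 and at 116, 114, 125 and 112 in Xins. As deposited, the 4 Xins libraries of both were closer together than the 4 X1 libraries. The SD was 7.86 against 19.5 RPKM for Ral-A and 5.74 against 17.5 for the transfer protein. In X1 both rose from replicate 1 to replicate 4, an order that many members shared. The members' median X1 spread was smaller under another library scaling, given further on.

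Other names belong to metabolism. N-acetyl-D-glucosamine kinase (SMED30014658), which returns an amino sugar to use, stood at 107, 136, 136 and 170 RPKM in X1 and at 140, 160, 136 and 161 in Xins. Very-long-chain 3-oxoacyl-CoA reductase (SMED30001895), an enzyme of fatty acid elongation, stood at 110, 102, 107 and 117 RPKM in X1 and at 114, 117, 121 and 73.1 in Xins. Xins replicate 4 of the reductase lay far under its other 7 libraries. Uroporphyrinogen decarboxylase (SMED30003163), an enzyme of haem synthesis, stood at 75.8, 89.1, 94.8 and 127 RPKM in X1 and at 80.9, 71.5, 101 and 95.3 in Xins. Mitochondrial adenylate kinase 2 (SMED30010721), which balances adenine nucleotides, stood at 34.5, 40.1, 41.4 and 48.5 RPKM in X1 and at 44.4, 39.3, 46.3 and 44.2 in Xins. For these enzymes too, the libraries of the fractions overlapped.

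The names further include proteins of cell death, junctions and regulation. The hit of SMED30014459 is the Bcl-2 homologous antagonist/killer, which opens the outer mitochondrial membrane during apoptosis in mammals, and its level was 162, 212, 194 and 250 RPKM in X1 and 155, 175, 235 and 187 in Xins. The hit of SMED30018622 is the innexin unc-9, a gap junction protein of *Caenorhabditis elegans*, at 116, 137, 132 and 124 RPKM in X1 and 142, 109, 125 and 113 in Xins. The innexin ran from 116 to 137 RPKM in X1 and more widely, from 109 to 142, in Xins. The Bcl-2 family hit was lowest in replicate 1 of both fractions. The hit of SMED30025317 is a bacterial universal stress protein, at 299, 402, 336 and 455 RPKM in X1 and 327, 315, 402 and 305 in Xins. TTC5 (SMED30017534), a cofactor of p53 in mammals, was at 45.5 to 59.3 RPKM in X1 and 42.1 to 53.4 in Xins, and WSB1 (SMED30026669), an adaptor of a ubiquitin ligase, at 41.1 to 59.0 and 39.7 to 51.0. The libraries of the fractions overlapped for all of these.

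A fibroblast growth factor receptor was the only member that the study also examined by in situ hybridization. Such receptors are tyrosine kinases at the cell surface that bind secreted growth factors, and SMED30034490 had a protein hit to FGFR1 of the planarian *Dugesia*. The study's tables describe its staining as in neoblasts and discrete mesenchymal cells. The primers that amplified it for the probe are shown because they identify the stretch that was stained. Each is given 5′ to 3′ and without the vector part at its start.

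Left primer of SMED30034490: gtcagtttcagtgggaactc
Right primer of SMED30034490: acactttccagttggttgac

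The receptor transcript, of 2276 nucleotides, stood at 56.9, 51.7, 54.1 and 53.6 RPKM in X1 and at 51.4, 38.6, 51.6 and 54.1 in Xins. The X1 libraries were close together, and Xins replicate 2 was the low value. Its log2 difference (X1 minus Xins, of RPKM + 1) was 0.15 with an SE of 0.13, and its ratio was near the upper limit of the rule. Of the 21 tested transcripts with a neoblast staining pattern, 19 were higher in X1, 1 was higher in Xins and the receptor was the one in the range. None of the 19 tested transcripts with a gut pattern and none of the 44 with an AGAT-1 mesenchymal pattern was in the range. Among all 15563 transcripts tested, 6.43% lay in the range and 35.5% were called higher in X1. At a share of 6.43%, a count of 0 in sets this small says little, and nothing is read from it. The study picked the genes it stained from those lowered in its RNAi worms, so each pattern is a selected set.

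Of the 200 members, 16 (8%) were in one of the study's RNAi lists, which were made from whole worms and not from these libraries. The same lists held 11.8% of all transcripts, 19.7% of the equally abundant transcripts higher in X1 and 21.6% of those higher in Xins. Lowered after knockdown of *chd4* and also of *p53* were 2 members (1%, against 3.08% of all transcripts), the decarboxylase and the receptor. Lowered in *p53* RNAi only were 2 members (1%, against 3.26%), the Bcl-2 family hit and the innexin, and lowered in *chd4* RNAi only were 9 (4.5%, against 3.25%). Raised in either were 3 members (1.5%, against 2.26%), SMED30012309, SMED30002753 and adenylate kinase 2. The share of members was above that of all transcripts in the list lowered in *chd4* RNAi only and below it in the other 3 lists, with counts of 2 to 9 members behind each share.

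Groups often taken as housekeeping were mostly outside the range, but so were transcripts as a whole. Of all transcripts tested, 6.43% were in the range and 35.5% were called higher in X1. In groups this small, 0 in the range is close to that share, and nothing is read from it. Protein hits came only from the tables of transcripts that changed in the RNAi worms, so each group is a selected part of its family. Of 38 tested transcripts with a ribosomal protein hit, 36 were higher in X1, 2 were higher in Xins and 0 were in the range. Their median log2 difference was 0.90 against -0.11 for all transcripts tested. Under quantile normalization that median was 0.34 and 4 of the 38 were in the range. All of 34 RNA processing transcripts but 1 were higher in X1, with 0 in the range, as were 11 of 12 heat shock proteins and chaperones, 19 of 24 histones and chromatin proteins and 6 of 7 translation factors. All of these had a positive median under each scaling tried.

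A few transcripts of other role groups were in the range, beside 1139 of all 17882 transcripts. With counts this small, nothing is read from the difference. Of 23 tested cytoskeletal transcripts, 10 were higher in Xins and 9 were higher in X1. Their median log2 difference of 0.07 turned to -0.07 with libraries at a common sum and to -0.11 with summed reads as library sizes. The counts in the range also cover transcripts with a mean under 1 RPKM, which were not tested. They were 2 of 26 cytoskeletal transcripts, 3 of 53 protein kinases and 3 of 26 transcription factors. For the ubiquitin system the count was 2 of 22 transcripts, and for mitochondrial proteins 2 of 69. These groups were found by words in the protein descriptions, which do not place the FGF receptor or WSB1 in one, and of the transcripts so found adenylate kinase 2 was the only member.

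Whether any single member differed between fractions was read from the fit of limma over all transcripts, in which 77.2% of the 15563 tested passed an adjusted p under 0.05, 35.5% as higher in X1 and 41.7% as higher in Xins. Of the members 0 did so, 0 had an unadjusted p under 0.05 (78.4% of all transcripts did) and 0 passed with limma-voom on recovered reads (76.8% of all). The limma-voom fit kept the library sizes inside the deposited RPKM values, so it is no check of that scaling. All 200 members had overlapping libraries, while 71.2% of all transcripts tested had none of their X1 values among their Xins values. Since the rule used this contrast, nothing is read from these counts. The members with the smallest p on the X1 side were the receptor, SMED30016048, SMED30015915, SMED30024194 and SMED30025014, with log2 differences of 0.14 to 0.16. Those on the Xins side were SMED30013177, SMED30019092, SMED30014658 (the N-acetyl-D-glucosamine kinase), SMED30023243 and SMED30011729, with -0.15 to -0.12. The 95% interval of a member's log2 difference reached a median of 0.33 to either side, from 0.25 to 0.69, whereas the rule spans -0.15 to 0.15. No member's interval lay inside that span, so equality within the rule's limits was not resolved for any single member with 4 libraries a fraction.

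The spread between libraries was wider than counting of reads alone gives for most members. The members had at least 126 reads in each library and a median total of 9250.5 (from 1325 to 434957). Counting alone would give a median coefficient of variation of 3.08% in X1 and 2.82% in Xins, and at most 8.26%. The coefficients measured were 13.5% in X1 and 14.2% in Xins, and 191 members exceeded their counting value in both fractions. These counting values cover sampling of reads only.

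The steadiest and the most variable members differed in length. SMED30025926, of 2666 nucleotides, stood at 32.9, 33.2, 34.9 and 33.3 RPKM in X1 and at 36.9, 31.4, 34.2 and 34.7 in Xins, with a mean SD of 0.065 on the log2 scale. SMED30016141 (1602 nucleotides) stood at 51.9, 50.3, 50.9 and 51.8 RPKM in X1 and at 48.4, 50.1, 46.4 and 55.8 in Xins. The others of the 5 steadiest were SMED30026866 (1277 nucleotides), SMED30027888 (2009) and SMED30013177 (2476), so that all 5 were longer than the median member of 1176 nucleotides.

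The 5 with the largest spread were shorter than that median. SMED30018704, of 482 nucleotides, stood at 81.6, 53.8, 80.9 and 57.5 RPKM in X1 and at 82.4, 90.0, 64.6 and 27.5 in Xins, with a mean log2 SD of 0.54. SMED30026531 (879 nucleotides) stood at 172, 460, 248 and 393 RPKM in X1 and at 332, 287, 416 and 254 in Xins. SMED30035284 (762 nucleotides) stood at 52.8, 35.05, 37.4 and 23.3 RPKM in X1 and at 49.7, 38.6, 50.9 and 24.8 in Xins. All 3 had their lowest Xins value in replicate 4. The same held for SMED30021205 (634 nucleotides), at 23.4 RPKM there and 50.5 to 66.9 in the other Xins libraries, and for SMED30028990 (591 nucleotides), at 23.1 against 43.4 to 69.8.

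The members' length and spread were set beside those of other abundant transcripts. Members ran from 267 to 4754 nucleotides, and their median of 1176 lay between 1111 and 949 for the equally abundant transcripts higher in X1 and in Xins on one side and 1267 for all transcripts tested on the other. Their median log2 SD was 0.192 in X1 and 0.204 in Xins. Equally abundant transcripts higher in X1 had 0.177 and 0.248, and those higher in Xins had 0.246 and 0.225. The spread was smaller in X1 than in Xins for 56.5% of the members, 71.8% of the transcripts higher in X1, 40.2% of those higher in Xins and 56.5% of all. As deposited, the members' median spread was nearly the same in both fractions, and in each comparison group it was smaller in the fraction where the transcript was higher. With library sizes from summed reads the members' median was 0.138 in X1 and 0.195 in Xins. These are descriptions, and the differences between the sets were not tested. A limma fit of the spread itself called 0 members and 1.66% of all transcripts tested, but it recovered few of the changed spreads in simulated data and its calls are not read.

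Most members shared a shift in 3 of the 8 libraries, X1 replicates 1 and 4 and Xins replicate 3. In each library the log2 level of each member was set against its mean over the other 3 libraries of the fraction. The median over members was -0.21, -0.03, 0.01 and 0.22 in X1 replicates 1 to 4 and -0.004, -0.03, 0.14 and -0.08 in Xins replicates 1 to 4. Over all transcripts tested the same medians lay between -0.04 and 0.07. The members above their mean in the other libraries numbered 37, 78, 108 and 166 of 200 in X1 replicates 1 to 4 and 96, 88, 154 and 74 in Xins replicates 1 to 4.

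Ranks within the fraction gave the same order. X1 replicate 1 was the lowest X1 library for 114 members (57%) and X1 replicate 4 the highest for 118 (59%), against 34.1% and 35.8% of all transcripts tested. Both held at once for 82 members. In Xins, replicate 3 was the highest for 93 members (46.5%, against 26.9% of all) and replicate 4 the lowest for 78 (39%, against 29.6%). The X1 order was also that of the equally abundant transcripts, since X1 replicate 1 was the lowest for 64.3% of those higher in X1 and 52.5% of those higher in Xins, and X1 replicate 4 the highest for 63.9% and 61.1%. The Xins order was not the same throughout. Replicate 3 was the highest for 62.0% of the transcripts higher in X1, but for those higher in Xins replicate 2 was the highest more often (38.0%) than replicate 3 (29.2%). Replicate 4 was the lowest for 40.1% of the transcripts higher in Xins, and for those higher in X1 replicate 1 was the lowest in 34.6% and replicate 4 in 30.8%.

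**Figure D3:**
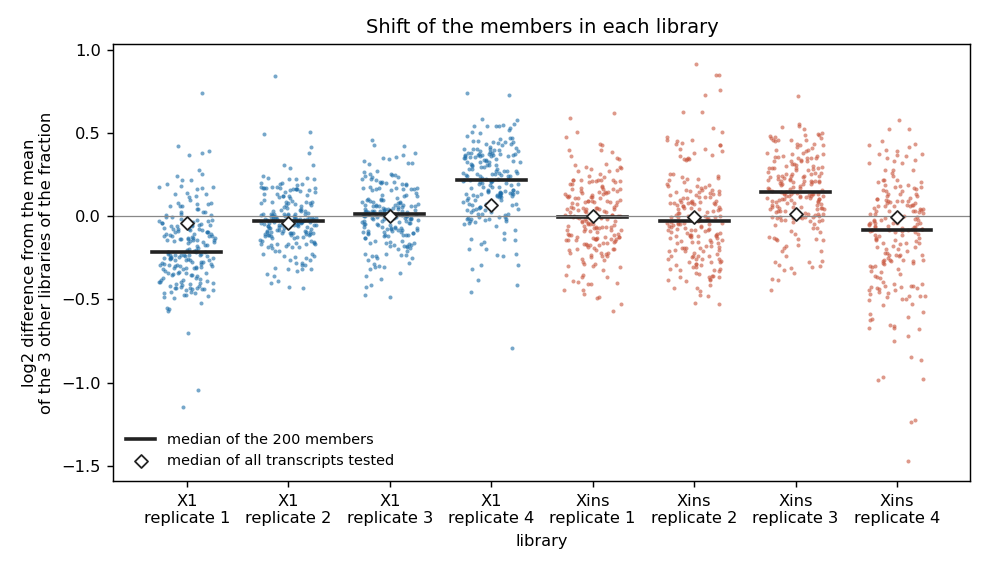
Log2 difference of each of the 200 members from its mean over the other 3 libraries of the same fraction (vertical), by library (horizontal), with X1 in blue and Xins in red. Bars are medians of the members and diamonds medians of all transcripts tested. The bar lies lowest in X1 replicate 1 (-0.21) and highest in X1 replicate 4 (0.22), and the points of Xins replicate 4 scatter most.

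The scatter of members around these shifts was 0.235, 0.175, 0.177 and 0.225 (SD over members, log2) in X1 replicates 1 to 4 and 0.220, 0.275, 0.216 and 0.342 in Xins replicates 1 to 4. Averaged over the 4 libraries of a fraction, it was 0.203 ± 0.0315 (SD) in X1 against 0.263 ± 0.0592 (SD) in Xins, a difference of -0.06 that the exact two-sided permutation test over libraries did not separate (p = 0.171, where 0.0286 is the smallest p that 4 against 4 allows). The size of the median shift was 0.117 ± 0.113 in X1 and 0.0646 ± 0.0611 in Xins (p = 0.429, same exact test, n = 4 each). The p-values for these comparisons, adjusted over the pair, are 0.343 and 0.429. Each library is set against the others of its fraction, so the values of a fraction are not independent and the p-values are only a guide. With quantile normalization the difference in scatter was -0.0793 (p = 0.0286, same permutation test), under the same limit. As deposited, the scatter of X1 and Xins libraries overlapped, and Xins replicate 4 had the highest value. Without Xins replicate 1, 2 or 3 the difference was -0.1, -0.0752 or -0.101. Xins libraries are then set against a mean of 2 others and X1 libraries against a mean of 3, which widens the scatter of Xins by construction, so nothing is read from the exact permutation p of 0.0286 that each of these gave.

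In X1 replicates 1 and 4 and Xins replicate 3 the size of the shift grew with the level of the member. In X1 replicate 1 the median shift of the 50 least abundant members (33.5 to 41.5 RPKM) was -0.04, and it was -0.14 and -0.25 in the middle groups of 50 and -0.34 in the 50 most abundant (108 to 3135 RPKM). In X1 replicate 4 it was 0.12, 0.17, 0.23 and 0.34 in the same groups, and in Xins replicate 3 it was 0.10, 0.11, 0.19 and 0.21. In Xins replicate 1 the shift fell with level, at 0.09, 0.07, -0.05 and -0.10. The medians of X1 replicates 2 and 3 showed no such growth, with -0.04, -0.05, -0.01 and 0.005 and with 0.02, 0.03, -0.007 and 0.01. Across the 200 members Spearman's rho between level and shift was -0.51, 0.21, -0.09 and 0.39 in X1 replicates 1 to 4 and -0.29, 0.16, 0.20 and -0.08 in Xins replicates 1 to 4. Across 3265 equally abundant others it was -0.37 in X1 replicate 1 and 0.29 in X1 replicate 4. These points share their libraries, so the values only describe them.

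In Xins replicates 2, 3 and 4 the members' shift varied more with length than with level. From the 50 shortest members (267 to 758 nucleotides) to the 50 longest (1583 to 4754), the median shift ran 0.21, -0.01, -0.09 and -0.15 in Xins replicate 2 and -0.28, -0.11, -0.06 and 0.12 in Xins replicate 4. In Xins replicate 3 it ran 0.25, 0.21, 0.14 and 0.02, and in Xins replicate 1 -0.14, -0.0008, 0.03 and 0.07. Spearman's rho between length and shift across the 200 members was 0.25, -0.47, -0.42 and 0.52 in Xins replicates 1 to 4 and 0.13, -0.11, 0.13 and -0.15 in X1 replicates 1 to 4. Across the 3265 others it was -0.52, -0.21 and 0.49 in Xins replicates 2 to 4. In X1 replicates 1 and 4 it was 0.33 and -0.40 across those others, so a relation with length was not limited to Xins there. Short members were therefore high in Xins replicates 2 and 3 and low in replicate 4, and the part of RNA quality or library size selection in this was not tested.

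**Figure D4:**
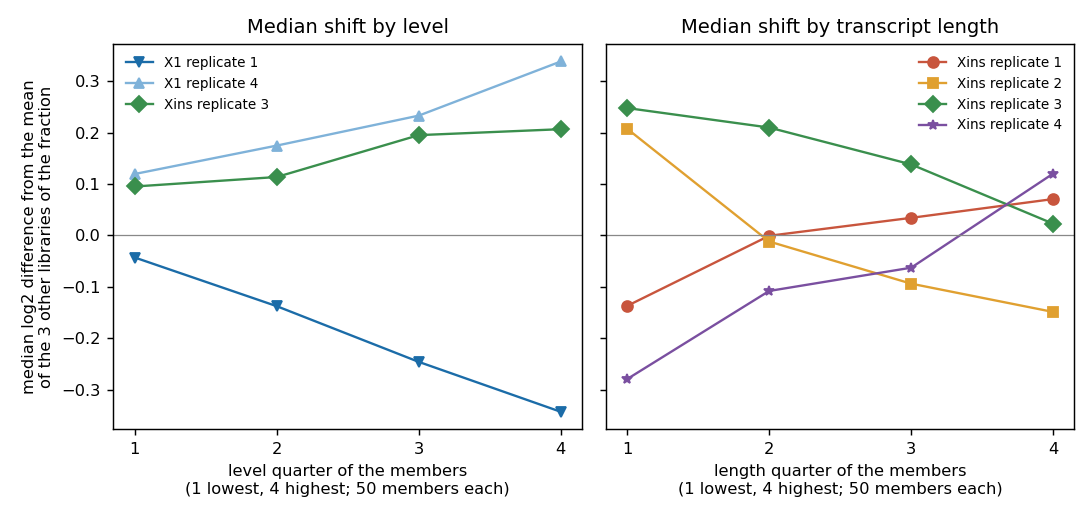
Median log2 difference of the members from the other 3 libraries of the fraction (vertical), over 4 groups of 50 members ordered by level (left, 3 libraries) or by transcript length (right, the 4 Xins libraries). With level, X1 replicate 1 runs from -0.04 to -0.34 and X1 replicate 4 from 0.12 to 0.34, and with length Xins replicate 2 runs from 0.21 to -0.15 while Xins replicate 4 runs from -0.28 to 0.12.

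The scaling between libraries moved with the shifts in X1. The library size inside the deposited RPKM values was 1.023 times the recovered reads in X1 replicate 1, 0.918 and 0.911 times in replicates 2 and 3 and 0.823 times in replicate 4, and 1.024 to 1.15 times in Xins. With summed reads as library sizes instead, the median shift of the members was -0.002, -0.02, -1.5e-05 and 0.01 in X1 and 0.09, -0.02, 0.02 and -0.06 in Xins. The members' median log2 SD in X1 was then 0.138 in place of 0.192, and in Xins 0.195 in place of 0.204. Over all transcripts tested, the medians in X1 replicates 1 and 4 were then 0.11 and -0.07. Neither of these scalings thus brought both the members and all transcripts to 0 in every library.

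Membership rested on the deposited scaling. The members took 2.85% to 3.08% of the recovered reads of an X1 library and 3.47% to 3.70% of those of a Xins library, with no overlap. With summed reads as library sizes all 200 members had the lower mean in X1, at ratios of 0.756 to 0.939 with a median of 0.834, and 26 stayed in the range. After rescaling to a common sum of RPKM 69 members stayed, after quantile normalization 136 and after median-ratio rescaling 155, with median ratios of 0.870, 0.934 and 0.952. None of these scalings put a member above the range, and 26 members were in it under every scaling. The median log2 difference of all transcripts tested was -0.11 as deposited, 0.22 after quantile normalization, -0.17 after median-ratio rescaling, -0.27 after rescaling to a common sum and -0.32 with summed reads.

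**Figure D5:**
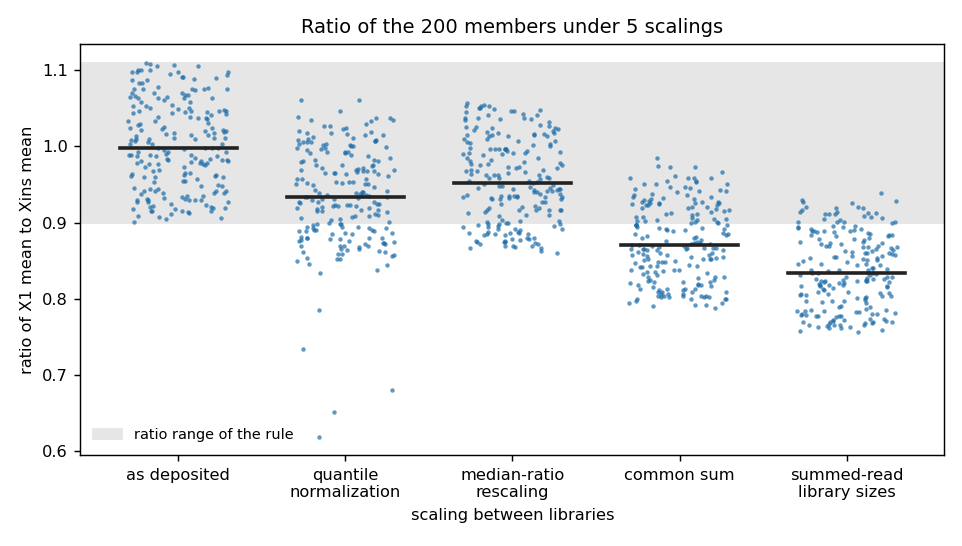
Ratio of the X1 mean to the Xins mean for each of the 200 members (vertical) under 5 scalings between libraries (horizontal), where bars are medians and the grey band is the range of the rule, from 0.9 to 1.11. The median moves from 0.998 as deposited to 0.834 with summed-read library sizes, where 174 members lie below the band.

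With summed reads, limma called 55 members higher in Xins at an adjusted p under 0.05, or 27.5% of them against 46.6% of all transcripts tested. Rescaling to a common sum gave 14 members (7%, against 44.8%) and quantile normalization 5 (2.5%, against 33.4%), all higher in Xins, and no alternative called a member higher in X1. SMED30013177 had the smallest adjusted p with summed reads. Its deposited levels were 206, 220, 223 and 231 RPKM in X1 and 274, 224, 251 and 223 in Xins, and its rescaled means were 201 and 266 RPKM (log2 difference -0.40, SE 0.11, adjusted p = 0.0054 by limma). SMED30020269 and SMED30019092 followed it, with log2 differences of -0.36 and -0.37. These members had a deposited ratio of 0.905 to 0.930, in the lower part of the range, and the rule that chose them used the same contrast.

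Leaving out a library moved fewer members than rescaling to a common sum or to summed reads did. The number still in the range was lowest without Xins replicate 4 (152) and X1 replicate 4 (156) and highest without X1 replicate 3 (184). Without X1 replicate 1, 35 members passed above the range and 3 below it, and without X1 replicate 4, 40 passed below it and 4 above. With medians in place of means 168 members stayed, and with geometric means 195. In all, 80 members stayed in the range whichever library was left out.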

How the data were processed

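The authors deposited RPKM values for 17882 transcripts in 4 X1 and 4 Xins libraries. Libraries of polyadenylated RNA were prepared with the TruSeq kit of Illumina. The submitters' notes name CASAVA 1.8.2, Bowtie and edgeR, and how these were applied to the sorted libraries is not given in the sources used here. Near-identical transcripts may share reads. RPKM multiplied by a whole-number length and a library size gave whole reads for 17882 of 17882 transcripts within 0.001 of a read. It did so for 0 of 100 rows whose values were slightly altered at random. The altered rows were searched over a shorter range of read counts, so they are not a like control. The recovered reads of the 17882 transcripts summed to 14323705 to 15523242 per library. Reads at other sequences are not in these sums, so they are not the full depth.

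No count model was the main test. limma 3.58.1 in R 4.3.3, with a mean-variance trend, was fitted to log2(RPKM + 1) of the 15563 transcripts with a mean of at least 1 RPKM (2319 were left out), two-sided, with Benjamini-Hochberg adjustment over all of them. All 200 members were among them. Fold changes of low transcripts are understated on this scale. A second limma fit compared the spread within fractions. In simulated data it recovered few of the changed spreads and gave 10.9% of unchanged transcripts an unadjusted p under 0.05, so its calls are not read. Values per library were compared by exact permutation (70 arrangements). These values share libraries within a fraction, so their p-values are only a guide. Other steps used Python 3.11.15, numpy 2.4.6, pandas 2.3.3, scipy 1.17.1 and matplotlib 3.10.9. Alternatives were other pseudocounts, filters, scalings, averages and blocks and each library left out. Library sizes from summed reads and limma-voom, which kept the deposited library sizes, were added after the data were seen.

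The members, the lists and the markers were chosen with earlier results of these data known. Named were the 15 most abundant members, those with a protein hit, those with the largest and smallest spread, those nearest the limits of the rule, those with the smallest limma p, those called in the spread fit (0) and those screened by in situ hybridization. Protein hits, RNAi lists and primers came from the study's tables. Role groups were found by words in the protein descriptions. Comparison sets were transcripts outside the ratio range and within the members' span of levels.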

Additional observations from a re-analysis of the deposited data

Results flagged for a closer look

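For very-long-chain 3-oxoacyl-CoA reductase (SMED30001895), Xins replicate 4 lay far from its partners, at 73.1 RPKM against 114 to 121 RPKM in the other 3 Xins libraries. The gap was 0.852 of the range of the 4 values, above Dixon's critical value for 4 values at the 95% level. It was the only such value among 106 groups of 4 libraries examined, of which chance would single out about 5.3 (1 in 20). Over all 200 members 11 of 400 groups passed the limit. Without Xins replicate 4, the members in the ratio range numbered 152.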

How the results depend on the processing

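The count of members called different was 0 as reported and with other pseudocounts, filters, median-ratio rescaling, limma-voom and each library left out. The limma-voom fit kept the deposited library sizes. The count was 5 with quantile normalization, 14 with libraries brought to a common sum and 55 with summed reads as library sizes. Members in the ratio range numbered 69 and 26 under the last pair of scalings, and 152 to 184 without a library. The count of all transcripts called, 12011, stayed within 1.5 times under each alternative, from 8088 to 13368 (11483 to 11854 without a library). The labels do not say whether replicate numbers pair the samples. Correlations of same-numbered deviations were 0.27, -0.19, -0.12 and -0.02, and so few values cannot decide it. With the replicate number as a block 11911 transcripts and 0 members were called.

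In the spread fit 259 transcripts (1.66%) and 0 members were called, with 20 of the 200 members at an unadjusted p under 0.05. In simulated data this fit gave 10.9% of unchanged transcripts such a p, so nothing is read from the 20. The count called over all transcripts became 0 with a pseudocount of 5 or deviations from the median and 2 with quantile normalization. Without a library it was 0 to 343 transcripts and 0 to 2 members. The difference in scatter between fractions was -0.06, became -0.0793 (exact permutation p = 0.0286) with quantile normalization, and ran from -0.101 to -0.0322 without a library, where the smaller fraction is widened by construction. The difference in median shift was 0.05 and turned to -0.0247 with quantile normalization and -0.0377 with summed reads, and ran from 0.006 to 0.09 without a library. The causes were not tested. Of 686 alternative values of the log2 difference of 49 named members, none of them called as reported, 619 moved by less than 1 SD and 67 by more. The sign changed in 125 of the 686, for 28 members with summed reads, 28 with a common sum, 14 with quantile normalization, 9 with median-ratio rescaling and 1 to 11 without a library.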
